A study of Mus musculus with 16 samples.

Results

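G108, a long-acting peptide agonist of the glucagon receptor, was compared with vehicle in the liver of obese mice fed a high-fat diet with standard protein content (SP). The comparison held 8 of the 16 libraries of the series, 4 from G108-treated mice and 4 from vehicle-treated mice, chosen by their labels, with 1 library per mouse. It asks what the liver transcriptome looked like after repeated glucagon receptor agonism without added dietary protein. All mice were male C57BL6/J of 10 weeks at the start of high-fat feeding, which supplied 60% of calories as fat and lasted 8 weeks before the study, per the sample records. G108 at 2.5 nmol/kg or vehicle was given under the skin at 9 am for 22 days, and liver was taken on day 25 after a 4 h fast. The study's methods give another age, another length of feeding and another last day, so these values rest on the records alone. Both groups ate the SP diet, so there was no lean group, and mice on the high-protein counterpart of the diet (HP) enter only where said.

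Glucagon acts on hepatocytes through the glucagon receptor, a Gs-coupled receptor that raises cAMP and activates protein kinase A. Protein kinase A phosphorylates the transcription factor CREB, which binds the cAMP response element TGACGTCA or its core TGACG in promoters of genes such as Pck1 and Ppargc1a. In the liver, glucagon is known for raising glucose output, amino acid uptake and breakdown and the formation of urea. Major urinary proteins, encoded by the Mup genes on mouse chromosome 4, are small secreted carriers of pheromones that male mouse liver makes in very large amounts, and their transcription is known to depend on pulses of growth hormone.

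Promoters of 3 genes that rose are shown because they hold the letters of that element. They are RefSeq sequences on GRCm38.p6, from 250 bases before to 50 bases after an annotated start, read on the strand of the gene, and capitals mark TGACGTCA or, on either strand, TGACG. Slc25a25 lies at chr2:32424017-32424316 on the minus strand for the start shown, Pck1 at chr2:173152823-173153122 on the plus strand and Ppargc1a at chr5:51567676-51567975 on the minus strand.
Slc25a25: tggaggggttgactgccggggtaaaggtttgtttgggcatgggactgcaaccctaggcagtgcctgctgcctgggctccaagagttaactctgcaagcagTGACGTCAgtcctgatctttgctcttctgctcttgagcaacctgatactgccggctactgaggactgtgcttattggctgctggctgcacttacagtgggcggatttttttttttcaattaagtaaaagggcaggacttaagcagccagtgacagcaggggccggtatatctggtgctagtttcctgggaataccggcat
Pck1: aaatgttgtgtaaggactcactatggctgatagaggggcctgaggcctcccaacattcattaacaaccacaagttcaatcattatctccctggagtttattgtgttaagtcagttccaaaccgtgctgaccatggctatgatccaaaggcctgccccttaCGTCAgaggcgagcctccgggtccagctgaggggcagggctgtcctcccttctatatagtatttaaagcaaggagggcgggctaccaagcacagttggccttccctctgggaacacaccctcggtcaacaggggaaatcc
Ppargc1a: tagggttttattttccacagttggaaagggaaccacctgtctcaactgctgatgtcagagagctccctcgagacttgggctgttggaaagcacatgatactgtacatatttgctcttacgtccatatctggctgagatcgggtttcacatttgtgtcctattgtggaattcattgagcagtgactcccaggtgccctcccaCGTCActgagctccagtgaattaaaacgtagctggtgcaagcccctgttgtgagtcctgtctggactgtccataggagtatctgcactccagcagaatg
The first marked base lies at -150 in Slc25a25, -90 in Pck1 and -49 in Ppargc1a, counted from the start. Windows of the other annotated starts of Slc25a25 held neither TGACGTCA nor TGACG, and nor did those of Tat and G6pc, which rose. The core TGACG was also in windows of Rarres1, Arrdc3 and Fitm1, which fell.

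The deposited values are transcript abundances in TPM, which divide the reads of a gene by its exon length and give every library the same total. Low TPM lie on steps of 1 read, from which 33.4 to 45.03 M assigned reads were recovered for the vehicle libraries and 27.8 to 35.9 M for the G108 libraries. All 10 hepatocyte markers listed passed the filter on low values, and their summed TPM lay between 22332 and 50879 with vehicle and between 54708 and 85544 with G108. Summed Kupffer cell markers lay between 54.8 and 89.4 TPM with vehicle and between 45.9 and 190.3 TPM with G108, and summed blood cell markers between 605.1 and 2107 TPM and between 946.4 and 1376 TPM. Endothelial markers summed to 19.4 to 30.96 TPM and 25.8 to 37.9 TPM. These sums are on TPM, which rise when Mup RNA falls. After the scaling described below, 0 of 10 hepatocyte markers were called in limma (0 at an unadjusted p under 0.05, median log2 fold change 0.05). With a covariate for GC slope, 4 of these 10 were called higher. On that scale all 6 endothelial markers tested had values below 0 (median -0.30), with 0 called and 5 at an unadjusted p under 0.05, and 4 were called lower with a covariate for GC slope. Of 9 Kupffer cell and 5 blood cell markers tested, 0 were called (1 and 3 at an unadjusted p under 0.05, medians -0.15 and -0.22). Summed adipocyte markers lay between 0.133 and 1.19 TPM with vehicle and between 0 and 0.0698 TPM with G108. Summed muscle markers lay between 0.227 and 0.751 TPM with vehicle and between 0.668 and 1.01 TPM with G108. In both lists 0 markers passed the filter, and Adipoq and Acta1 were below a mean of 0.1 TPM. In bulk tissue, fewer cells of a type and less RNA per cell cannot be told apart. Vehicle mouse 4 stood apart in several genes below, with the highest mitochondrial share of TPM (24.0%) and the steepest slope of its values on transcript GC content, and vehicle mouse 3 had the lowest slope. Among G108-treated mice, mouse 1 lay nearest to vehicle for most genes that changed.

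Mup transcripts were lower in every G108-treated mouse. The 49 Mup genes of the table made up 49.7%, 42.7%, 47.9% and 42.6% of all TPM in vehicle mice 1 to 4. In G108 mice 1 to 4 they made up 22.9%, 19.7%, 18.3% and 22.99%. The groups did not overlap, with means of 45.7% ± 3.59 and 21.0% ± 2.33 (SD, n = 4 each) and a difference of -24.7 percentage points (two-sided exact permutation test, p = 0.0286, the smallest p that 4 mice against 4 can give). With mitochondrial genes left out of the denominator, the means were 55.5% and 25.9% (same p).

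Because TPM share a fixed total, less Mup RNA raises the TPM of all other genes. The median log2 fold change of the 11839 genes tested, those whose TPM averaged at least 1, was 0.60 on TPM, a 1.51-fold rise in TPM + 1 of the typical gene. Median-of-ratios scaling divides each library by its typical ratio to the other libraries and brought this median to -0.01. Scaled TPM below are deposited TPM divided by these factors, fold changes are differences of mean log2(scaled TPM + 1), G108 minus vehicle, and a gene is called where limma's moderated test over all 16 libraries gave a Benjamini-Hochberg adjusted p under 0.05. Leaving Mup and mitochondrial genes out and rescaling TPM to a common total gave a median of 0.05, close to the median-of-ratios result. The plot of library composition shows both facts.

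**Figure D1:**
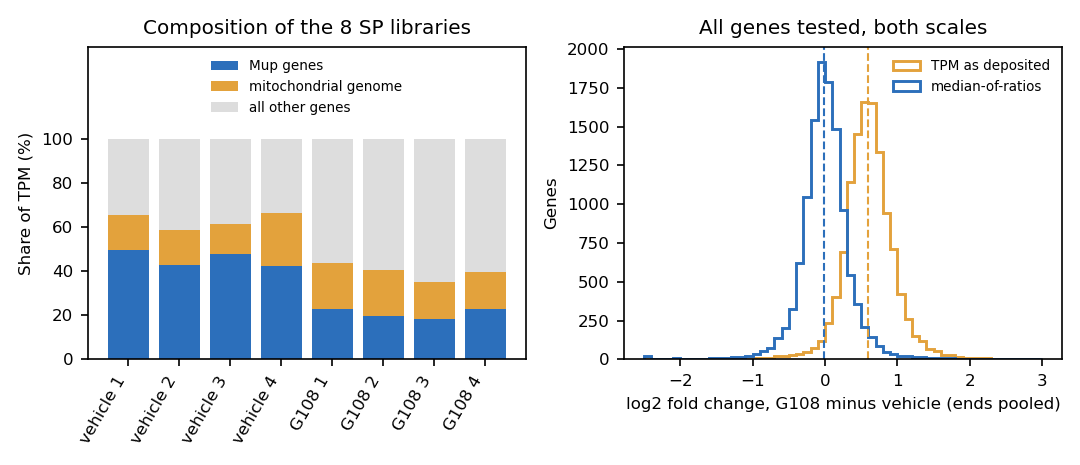
Left, share of TPM (%) from Mup genes (blue), the mitochondrial genome (orange) and all other genes (grey) in each of the 4 vehicle and 4 G108 libraries on SP, where the blue bars are lower in all 4 G108 libraries (18.3% to 22.99%) than in any vehicle library (42.6% to 49.7%). Right, number of genes by log2 fold change on TPM as deposited (orange, dashed median 0.60) and after scaling by median of ratios (blue, dashed median -0.01), each over 11839 genes, with values past the ends of the axis counted in the end bins.

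On TPM as deposited 9113 genes were called higher (77.0%) and 72 lower (0.608%), together 77.6% of the genes tested. Once scaled by median of ratios, 158 genes were higher (1.33%) and 164 lower (1.39%), or 2.72% together. All 158 genes called higher after scaling were also called higher on TPM. Of the 164 called lower after scaling, 60 were called lower on TPM, 101 were not called on TPM and 3 were called higher on it. Those 3 were Asna1, Ifnar2 and Slc22a30, named here because they were called in opposite directions on the 2 scales. In all, 50 of the 322 calls had a value of the other sign on TPM. Log2 fold changes of at least 1 in size were found for 51 of the genes called higher and 69 of those called lower. The added 1 shrinks these values for low genes. Ppargc1a, at 0.89, is thus not among the 51, although its mean scaled TPM rose 2.71-fold. Of the calls higher and lower, 136 and 121 were protein-coding genes. The 4 G108 values and the 4 vehicle values did not overlap for 301 of the 322 calls, against 9.21% of all genes tested (4.52% with G108 higher and 4.69% with G108 lower). Results below are after median-of-ratios scaling unless TPM is named.

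Individual mice differed in how far they followed their group. Among the 158 genes called higher, vehicle mouse 1 had the highest value of the 4 vehicle mice for 112 and G108 mouse 1 the lowest value of the 4 G108 mice for 100. Among the 164 called lower, G108 mouse 1 had the highest value of its group for 109 and vehicle mouse 4 the highest of its group for 78. Without G108 mouse 1 the calls numbered 228 higher and 243 lower, and 296 of the 322 remained. Without G108 mouse 4 they numbered 74 and 85, and 155 of the 322 remained.

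Several known target genes of cAMP signalling rose with G108, while cAMP itself was not measured. Of 13 tested genes of a list of cAMP targets, 7 were called higher and 0 lower, 11 had values above 0, and the median log2 fold change was 0.80 against -0.01 over all genes. On TPM 12 of the 13 were called higher. Sik1, a kinase that cAMP induces and that restrains the coactivators of CREB, stood at 3.70, 1.68, 1.52 and 2.17 scaled TPM in vehicle mice 1 to 4 and at 5.52, 8.20, 11.02 and 10.03 in G108 mice 1 to 4. Every G108 mouse exceeded every vehicle mouse, and the log2 fold change was 1.58 ± 0.31 (SE, limma adjusted p = 0.0132), a call lost without G108 mouse 3 or G108 mouse 4. Ppargc1a, the coactivator PGC-1α of gluconeogenic and mitochondrial genes, stood at 1.61, 0.658, 0.864 and 0.660 with vehicle and at 2.07, 2.84, 3.08 and 2.27 with G108. Again the groups did not overlap, at a log2 fold change of 0.89 ± 0.14 (limma adjusted p = 0.00274).

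Crem and Pde4b, which limit the cAMP response as a repressor of CREB sites and as a cAMP phosphodiesterase, rose by less. Crem had a log2 fold change of 0.66 ± 0.13 (limma adjusted p = 0.0115) and Pde4b of 0.67 ± 0.13 (adjusted p = 0.00940). The remaining calls of the list were Tat, Pck1 and G6pc, described with their pathways. Of members not called, the immediate-early gene Nr4a1 had a log2 fold change of 1.25 (limma adjusted p = 0.106), Irs2 of 0.80 (0.0818), the clock gene Per1 of 0.40 (0.324) and the transcription factor gene Cebpb of -0.16 (0.644). The count of 7 ran from 4 to 7 with each mouse left out in turn, and it was 4 without G108 mouse 3 and without G108 mouse 4. With vehicle mice 3 and 4 left out together, which leaves 2 vehicle mice, no member of the list was called. A fit to the 8 SP libraries alone called 2, and Ppargc1a, Tat and Crem lost their calls there.

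The components of the pathway itself did not share a direction. Of 14 tested genes for the receptor, G proteins, adenylyl cyclases, kinases and regulators, 1 was called, and the median log2 fold change was -0.03. Values were above 0 for 6 of the 14, and 5 had an unadjusted p under 0.05, against 2098 of all 11839 genes. Array quality weights gave 3 calls higher and 2 lower, and a covariate for GC slope 1 higher and 3 lower. Gcgr, the gene of the glucagon receptor, stood at 165.4, 153.2, 147.4 and 408.8 scaled TPM with vehicle and at 193.5, 128.9, 114.4 and 105.1 with G108. The groups overlapped, with vehicle mouse 4 far above the other vehicle mice and G108 mouse 1 above 3 of them, and the log2 fold change was -0.58 ± 0.30 (limma adjusted p = 0.318) or 0.19 on TPM (0.446). The member called was Rgs16, which speeds up GTP hydrolysis by G proteins of the Gi and Gq classes. It stood at 19.1, 45.4, 40.4 and 27.0 scaled TPM with vehicle and at 5.98, 0.662, 1.07 and 0.791 with G108. All 4 G108 values lay below all 4 vehicle values, at a log2 fold change of -3.65 ± 0.49 (limma adjusted p = 8.58e-04). Gm28513 overlaps Rgs16 on the opposite strand (Rgs16 spans chr1:153740349-153745468, GRCm38) and moved with it, and since the strandedness of the counting is not given in the sources used here, the reads of this pair cannot be told apart.

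The single genes with the largest rises included Got1, Tat and Slc7a2 of amino acid metabolism, Pck1, and Sik1 of the cAMP response. The plot of the largest rises gives all 12 by mouse. Got1, the cytosolic aspartate aminotransferase, led them with 73.5, 40.2, 29.1 and 24.7 scaled TPM in vehicle mice 1 to 4 and 136.9, 204.8, 207.0 and 199.3 in G108 mice 1 to 4. G108 mouse 1 was the lowest of its group and still lay above every vehicle mouse, and the log2 fold change was 2.24 ± 0.28 (limma adjusted p = 4.81e-04). Egln3, a prolyl hydroxylase that acts on hypoxia-inducible factors, stood at 4.56, 4.13, 3.78 and 2.92 with vehicle and at 9.06, 12.5, 15.3 and 18.3 with G108. The lowest G108 value lay well above the highest vehicle value, and the log2 fold change was 1.58 ± 0.17 (limma adjusted p = 1.72e-04). Cyp17a1, the steroid 17-alpha-hydroxylase, stood at 13.5, 13.2, 11.2 and 2.62 with vehicle and at 20.8, 46.8, 38.8 and 30.7 with G108. Vehicle mouse 4 was far below the others here, and the log2 fold change was 1.79 ± 0.42 (limma adjusted p = 0.0324), a call that was lost without vehicle mouse 3, vehicle mouse 4 or any of G108 mice 2 to 4.

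**Figure D2:**
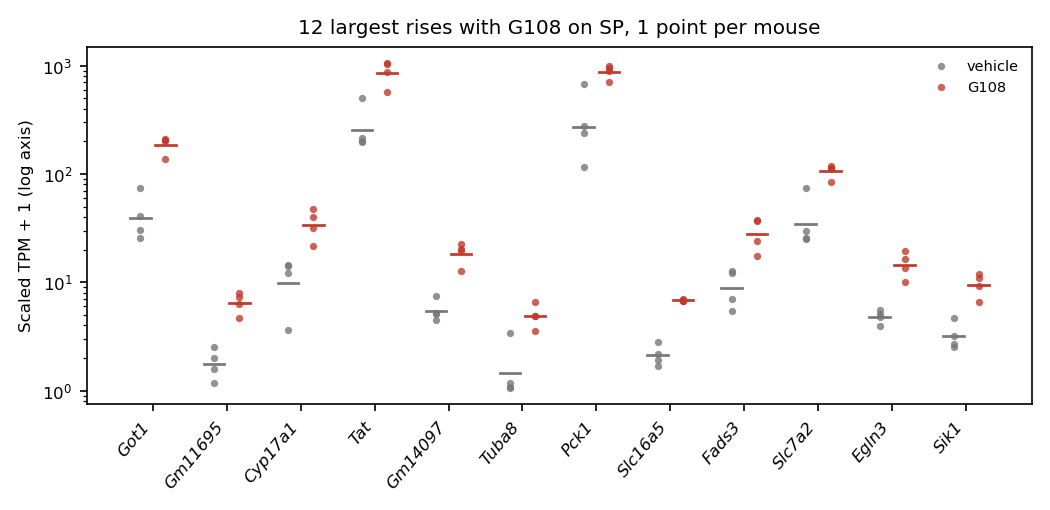
Scaled TPM + 1 (log axis) of the 12 genes with the largest log2 fold change among genes called whose groups did not overlap, with 1 point per mouse (grey vehicle, red G108, 4 each) and bars at the mean on the log scale. For Got1 the 4 G108 mice sit between 136.9 and 207.0, all above the vehicle mice (24.7 to 73.5), and for Tat, Tuba8 and Slc7a2 vehicle mouse 1 is the uppermost grey point, close to the lowest G108 mouse.

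Slc16a5, a carrier of the monocarboxylate transporter family, stood at 0.704 to 1.83 scaled TPM with vehicle and at 5.67 to 6.03 with G108, a narrow range and a log2 fold change of 1.69 ± 0.24 (limma adjusted p = 0.00133). Gm11695 overlaps Slc16a5 on the opposite strand and Gm14097 overlaps Shld1, so each of these transcripts is uncertain by itself. Fads3, of the fatty acid desaturase family, had a log2 fold change of 1.66 ± 0.35 (limma adjusted p = 0.0203), a call lost without vehicle mouse 3, vehicle mouse 4, G108 mouse 3 or G108 mouse 4. Tuba8, an alpha-tubulin, was near 0 in vehicle mice 2 to 4 (0.0539 to 0.164 scaled TPM), but vehicle mouse 1 at 2.41 almost reached G108 mouse 1 at 2.52, and its call was lost without any of vehicle or G108 mice 2 to 4.

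Amino acid breakdown had the largest number of genes called higher among the 44 lists, which differ in length and were chosen with earlier results known. Of 45 genes tested, 11 were called higher and 0 lower, against 1.33% higher over all genes tested. The share called higher was larger in lists such as cAMP targets (7 of 13), amino acid transporters (6 of 13) and periportal genes (4 of 13). Amino acid breakdown had a median log2 fold change of 0.35, and 38 of 45 values were above 0. On TPM 43 of the 45 were called higher. Tat, which removes the amino group of tyrosine, stood at 498.8, 213.1, 196.5 and 199.8 scaled TPM with vehicle and at 571.0, 877.0, 1051 and 1036 with G108. Vehicle mouse 1 was more than 2-fold above the other vehicle mice but below all G108 mice, and the log2 fold change was 1.75 ± 0.31 (limma adjusted p = 0.00633). Further steps of tyrosine degradation rose with it. The log2 fold changes were 0.60 for Hpd (limma adjusted p = 0.0110) and 0.94 for Hgd (0.0124), while Fah, the last enzyme of the route, had -0.04 (0.86).

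Further enzymes of amino acid metabolism also rose. Gls2, the liver glutaminase, stood at 58.5 to 115.2 scaled TPM with vehicle and at 149.4 to 196.0 with G108 (log2 fold change 1.23 ± 0.18, limma adjusted p = 0.00186). Oat, ornithine aminotransferase, stood at 248.1 to 505.1 and 623.7 to 865.1 (1.28 ± 0.22, limma adjusted p = 0.00497). Sds, serine dehydratase, had a log2 fold change of 1.19 (limma adjusted p = 0.0413), Gnmt, glycine N-methyltransferase, of 1.49 (0.00739), Cbs, cystathionine beta-synthase, of 1.07 (0.00661) and Aldh4a1 of the proline route of 0.70 (0.0238). Sds overlaps Gm15690 on the opposite strand, and its call was lost without vehicle mouse 2, vehicle mouse 3 or any 1 of the G108 mice. Genes of branched-chain amino acid breakdown had smaller values that were not called, such as 0.10 for Bckdha (limma adjusted p = 0.60) and 0.18 for Ivd (0.48). With each mouse left out in turn the list kept 8 to 16 calls, and with vehicle mice 3 and 4 out together it kept 1. With the 8 SP libraries alone it kept 2, and Tat and Oat were not among them.

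Some transporters that carry amino acids across the hepatocyte membrane rose as well. Of 13 tested, 6 were called higher and 0 lower, and 11 had values above 0 (median log2 fold change 0.41), and on TPM all 13 were called higher. Slc7a2, a carrier of arginine, lysine and ornithine, stood at 74.0, 29.1, 24.1 and 24.7 scaled TPM with vehicle and at 82.9, 109.3, 113.6 and 118.1 with G108. As for Tat, vehicle mouse 1 lay well above its group and just below the G108 mice, and the log2 fold change was 1.61 ± 0.27 (limma adjusted p = 0.00496). Slc3a1, the heavy chain of the cystine and dibasic amino acid carrier, had a log2 fold change of 0.89 (limma adjusted p = 0.00701). The values were 0.72 for Slc38a2 (0.0296) and 0.70 for Slc38a4 (0.0203, lost without any of G108 mice 2 to 4), which take up small neutral amino acids with sodium, 0.63 for the glutamate carrier Slc1a2 (0.00522) and 0.53 for Slc1a4 (0.0204). The count was 3 without G108 mouse 4, 4 without vehicle mouse 2, vehicle mouse 3, G108 mouse 2 or G108 mouse 3, and 2 with vehicle mice 3 and 4 out together. It was 0 with the 8 SP libraries alone.

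The urea cycle changed in part. Of 8 genes tested, 2 were called higher, 0 lower, and 7 had values above 0 (median 0.61), while all 8 were called higher on TPM. Slc25a15, the mitochondrial ornithine carrier, stood at 29.0, 22.3, 22.9 and 15.98 scaled TPM with vehicle and at 40.6, 54.3, 53.5 and 60.8 with G108, without overlap (log2 fold change 1.19 ± 0.18, limma adjusted p = 0.00274). Ass1, argininosuccinate synthase, stood at 1387, 676.4, 657.9 and 493.1 with vehicle and at 1269, 2109, 1781 and 1811 with G108. Here vehicle mouse 1 exceeded G108 mouse 1, and the log2 fold change was 1.21 ± 0.27 (limma adjusted p = 0.0241), a call lost without any of vehicle or G108 mice 2 to 4. Cps1, the first enzyme of the cycle, stood at 258.5, 170.3, 225.6 and 86.2 with vehicle and at 260.1, 429.8, 447.6 and 527.7 with G108. No G108 value lay below a vehicle value, yet the spread was wide and the log2 fold change of 1.23 ± 0.34 was not called (limma adjusted p = 0.0765). Arg1 had 0.67 (limma adjusted p = 0.0501), Asl 0.56 (0.138) and Otc -0.01 (0.976). Without vehicle mouse 1, 5 members were called and without G108 mouse 1, 4, whereas 1 was called without any 1 of the other mice. The count was also 1 with the 8 SP libraries alone.

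In gluconeogenesis, only Pck1 and G6pc were called. Of 9 genes tested, 2 were called higher, 0 lower, and the median log2 fold change was 0.09. Pck1, phosphoenolpyruvate carboxykinase, stood at 678.3, 274.1, 239.8 and 115.8 scaled TPM with vehicle and at 706.0, 983.1, 942.8 and 889.2 with G108. Vehicle mouse 1 again almost reached G108 mouse 1, and the log2 fold change was 1.70 ± 0.38 (limma adjusted p = 0.0243). G6pc, the catalytic unit of glucose-6-phosphatase, stood at 40.5, 65.9, 42.3 and 42.3 with vehicle and at 85.5, 65.5, 129.2 and 142.8 with G108, where vehicle mouse 2 and G108 mouse 2 overlapped (1.09 ± 0.25, limma adjusted p = 0.0296). Fbp1, fructose-bisphosphatase, had 1.37 ± 0.37 (limma adjusted p = 0.0707) and Pcx, pyruvate carboxylase, -0.04 (0.91). The count of 2 fell to 0 without vehicle mouse 3, G108 mouse 3 or G108 mouse 4, and to 1 without vehicle mouse 1, vehicle mouse 2, vehicle mouse 4 or G108 mouse 2. It was also 0 with the 8 SP libraries alone. Glycogen genes had 0 calls of 12 (4 at an unadjusted p under 0.05), with Phka2 the smallest p (-0.40, limma adjusted p = 0.18).

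In the list of insulin signalling and FOXO1 targets 4 of 16 genes were called higher, namely Igfbp1, Irs1, Pck1 and G6pc, and 1 was called lower. The count higher was 2 without vehicle mouse 3, G108 mouse 3 or G108 mouse 4, and 0 with the 8 SP libraries alone or with vehicle mice 3 and 4 out together. Igfbp1, an insulin-repressed binding protein of insulin-like growth factors, stood at 2.90 to 8.04 scaled TPM with vehicle and at 9.42 to 19.5 with G108 (log2 fold change 1.36 ± 0.23, limma adjusted p = 0.00506). Irs1, a docking protein of the insulin receptor, stood at 1.23 to 2.66 and 3.24 to 4.26 (0.75 ± 0.14, limma adjusted p = 0.0110).

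Lipid pathways held few calls. De novo lipogenesis had 1 gene called lower of 19 and 0 higher (median -0.11), and 7 of the 19 values were above 0. With 1 mouse left out 0 to 2 members were called higher and 0 to 1 lower, and array quality weights gave 3 in each direction. The gene called was Thrsp, a nuclear protein tied to lipogenic transcription. It stood at 134.1 to 236.1 scaled TPM with vehicle and 61.9 to 100.96 with G108 (log2 fold change -1.32 ± 0.26, limma adjusted p = 0.0141). The call was lost without G108 mouse 2 and on TPM, where the value was -0.55 (0.129). Fasn, fatty acid synthase, stood at 39.7, 59.6, 46.0 and 148.3 with vehicle and at 34.0, 29.7, 40.4 and 42.9 with G108, where vehicle mouse 4 stood apart (-0.79, limma adjusted p = 0.304). Srebf1, the gene of the lipogenic transcription factor SREBP-1, had -0.20 (limma adjusted p = 0.681) and turned to 0.13 without vehicle mouse 4. Fitm1, which partitions fat into lipid droplets, was the 1 call among 16 lipid droplet genes and fell from 27.4 to 47.9 with vehicle to 11.98 to 15.6 with G108 (log2 fold change -1.33 ± 0.20, limma adjusted p = 0.00188).

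For fatty acid oxidation the scale decided the calls. All 17 genes tested were called higher on TPM (median log2 fold change 1.10), and 0 were called after scaling (median 0.32, with 14 of 17 values above 0 and 6 at an unadjusted p under 0.05). Cpt1a, which controls entry of fatty acids into mitochondria, stood at 24.1, 26.1, 26.5 and 15.1 scaled TPM with vehicle and at 28.5, 36.0, 36.2 and 40.5 with G108 (log2 fold change 0.62 ± 0.19, limma adjusted p = 0.0993). The groups did not overlap, but the call was not made. With a covariate for GC slope, an alternative chosen after the values were seen, 10 of the 17 were called higher. At limma's adjusted threshold ketogenesis had 0 calls of 5 (0 at an unadjusted p under 0.05), cholesterol synthesis 0 of 21 (1) and lipoproteins 0 of 16 (4). PPAR alpha targets had 1 of 17, the peroxisomal gene Pex11a (-0.72, limma adjusted p = 0.0132, and -0.00 on TPM). Its call was lost without G108 mouse 2, with the 8 SP libraries alone and with vehicle mice 3 and 4 out together. It was also lost on TPM, as deposited or rescaled without Mup and mitochondrial genes. Cyp27a1, sterol 27-hydroxylase, was the 1 call among 18 bile acid genes (-0.67, limma adjusted p = 0.0232), its sign turned on TPM (0.10), and the call was lost without vehicle mouse 3 or any of G108 mice 2 to 4. That call was also lost with the 8 SP libraries alone and on TPM rescaled without Mup and mitochondrial genes.

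**Figure D3:**
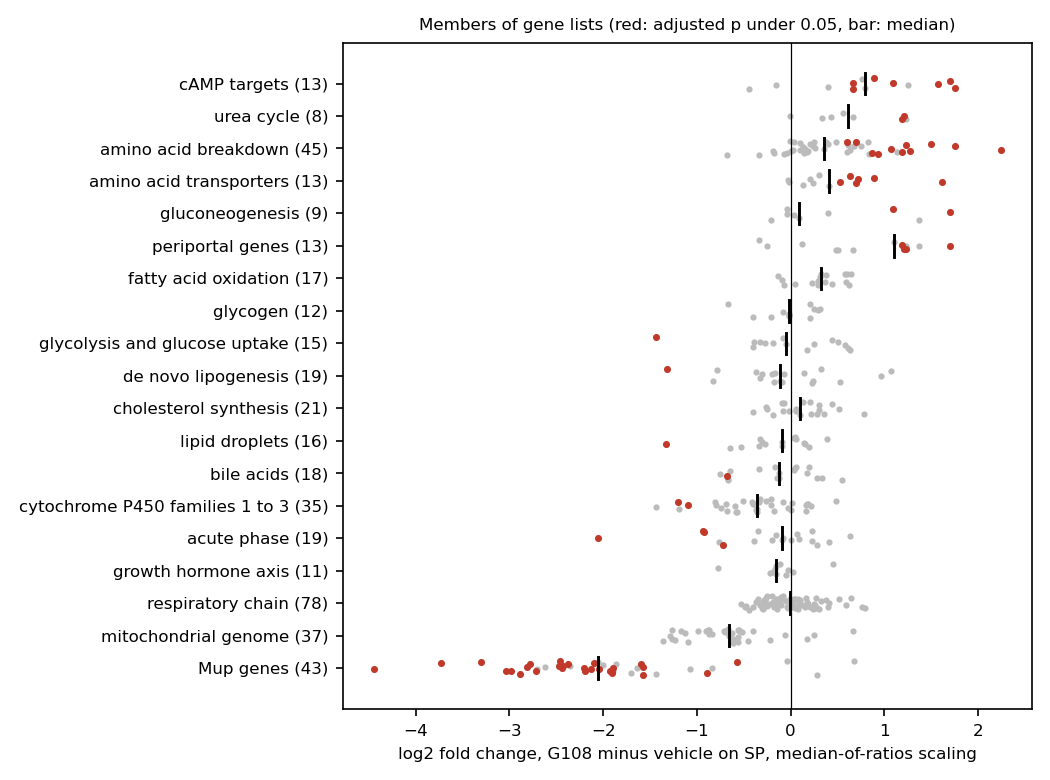
Log2 fold change of G108 against vehicle on SP after median-of-ratios scaling for each tested member of 19 gene lists (number tested in brackets), red where limma's adjusted p was under 0.05, grey otherwise, with a bar at the median of the list. The bars of cAMP targets (0.80), periportal genes (1.11) and the urea cycle (0.61) lie right of 0, the bar of the Mup genes (-2.06) lies far left, and most lipid lists centre near 0.

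Genes of the periportal zone, where hepatocytes near the portal vein make glucose and urea, had 4 of 13 called higher (Pck1, Ass1, Gls2 and Sds) and 0 lower, with a median of 1.11. This list shares members with those of the urea cycle, gluconeogenesis and amino acid breakdown, so the counts are not independent, and this one fell to 1 without vehicle mouse 2, vehicle mouse 3, G108 mouse 2, G108 mouse 3 or G108 mouse 4. Of 13 pericentral genes, expressed near the central vein, 3 were called higher (Oat, Slc1a2 and Lhpp) and 1 lower (Cyp27a1), with a median of -0.16. The pericentral markers Glul (-0.16, limma adjusted p = 0.589) and Cyp2e1 (-0.35, 0.445) were not called. Whether the zones changed in extent cannot be told apart from expression within them in bulk RNA.

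Gene by gene, most Mup genes fell. Of 43 tested, 28 were called lower and 0 higher, with a median log2 fold change of -2.06, and 30 were lower and 2 higher on TPM. Mup7 stood at 60853, 28890, 37081 and 42648 scaled TPM with vehicle and at 7488, 5322, 3955 and 7229 with G108. Mup1 stood at 59840, 32363, 40230 and 53646 with vehicle and at 9118, 6484, 4740 and 7885 with G108. In both genes the highest G108 mouse lay well below the lowest vehicle mouse, and the log2 fold changes were -2.81 ± 0.28 and -2.72 ± 0.26 (limma adjusted p = 1.30e-04 for both). Mup genes share near-identical sequence, so reads may be counted for a sister gene or left out, and values of single members are uncertain.

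Not every Mup gene followed. Mup20, which encodes the pheromone darcin, stood at 8590, 6266, 5437 and 3652 scaled TPM with vehicle and at 5296, 8819, 7234 and 6923 with G108. The groups overlapped, the log2 fold change was 0.28 ± 0.23 (limma adjusted p = 0.510), and on TPM it was 1.06 and called higher. The pseudogene Mup-ps19, named after its values were seen, was the other member with a value above 0 (0.68, limma adjusted p = 0.310). Mup3 fell by 0.57 on the log2 scale and Mup21 by 0.89, less than the median of the family. Summed over the 43 genes, scaled TPM fell from 581559 ± 117804 to 155291 ± 31333 (SD, n = 4 each), 3.74-fold lower with G108.

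Genes outside the Mup family fell too, and the plot of falls gives 12 of them by mouse. Of the 164 genes called lower, 135 were neither Mup genes nor the transcript that overlaps one. Serpina4-ps1, a transcribed serpin pseudogene at chr12:104080649-104086724, stood at 150.9, 119.7, 205.9 and 143.0 scaled TPM with vehicle and at 4.21, 3.12, 10.7 and 18.3 with G108. It was 17.1-fold lower by the ratio of means, with a log2 fold change of -4.20 ± 0.54 (limma adjusted p = 7.16e-04). Arrdc3, an alpha-arrestin that takes part in receptor trafficking, stood at 26.7, 25.9, 25.1 and 22.3 with vehicle and at 11.3, 2.35, 2.83 and 3.21 with G108. The vehicle mice lay close together and G108 mouse 1 between the groups, at a log2 fold change of -2.35 ± 0.37 (limma adjusted p = 0.00286). Depp1, a target of FOXO factors, stood at 47.2, 41.5, 28.7 and 19.0 with vehicle and at 12.2, 3.85, 6.03 and 3.98 with G108 (-2.27 ± 0.39, limma adjusted p = 0.00578).

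**Figure D4:**
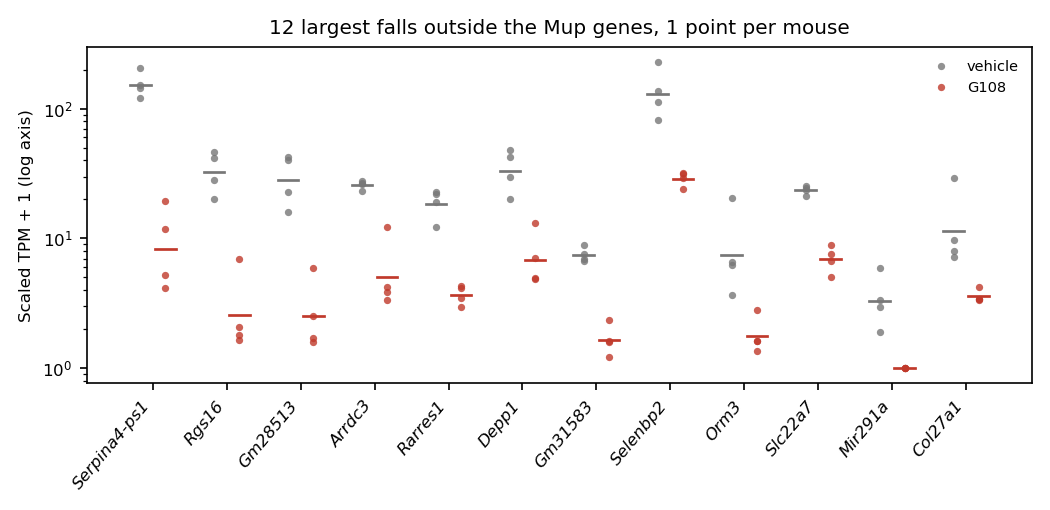
Scaled TPM + 1 (log axis) of the 12 genes outside the Mup family with the largest falls among genes called whose groups did not overlap, with 1 point per mouse (grey vehicle, red G108, 4 each) and bars at the mean on the log scale. Serpina4-ps1 sits between 119.7 and 205.9 with vehicle and between 3.12 and 18.3 with G108, and for Rgs16, Gm28513 and Arrdc3 the uppermost red point is G108 mouse 1.

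Rarres1, a gene induced by retinoids, stood at 11.2 to 22.0 scaled TPM with vehicle and at 1.94 to 3.29 with G108 (log2 fold change -2.34 ± 0.29, limma adjusted p = 4.81e-04). Slc22a7, a carrier of organic anions and cyclic nucleotides, stood at 24.4, 20.1, 22.4 and 23.6 with vehicle and at 7.94, 6.63, 4.05 and 5.71 with G108, both groups tight and apart (-1.77 ± 0.23, limma adjusted p = 7.85e-04). Col27a1, a fibrillar collagen, had -1.65 ± 0.37 (limma adjusted p = 0.0243), with vehicle mouse 4 at 28.4 against 6.15 to 8.80 in the other vehicle mice, and its call was lost without any of G108 mice 2 to 4. Mir291a was listed at 0 in all 4 G108 libraries and at 0.907 to 4.96 scaled TPM with vehicle, so no fold is given.

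Male-biased liver genes moved in both directions. Among 16 tested outside the Mup family, 2 were called lower and 1 higher, with a median of -0.32 and 10 at an unadjusted p under 0.05, against 2098 of the 11839 genes tested. The count lower was 1 without vehicle mouse 3 or G108 mouse 2 and 3 without G108 mouse 1. Selenbp2, a selenium-binding protein, stood at 226.8, 80.2, 136.8 and 112.4 scaled TPM with vehicle and at 23.1, 31.1, 28.1 and 30.2 with G108, without overlap (log2 fold change -2.17 ± 0.28, limma adjusted p = 7.85e-04). Cyp4a12a, an arachidonic acid hydroxylase, had -1.26 ± 0.26 (limma adjusted p = 0.0149) and lost its call on TPM (-0.53), without vehicle mouse 3 and without G108 mouse 2. Elovl3, a fatty acid elongase, was called higher (1.25 ± 0.31, limma adjusted p = 0.0450), and its call was lost without vehicle mouse 3, vehicle mouse 4 or any of G108 mice 2 to 4. Of 6 female-biased genes tested Cyp17a1 was called higher. The growth hormone axis had 0 calls of 11 (0 at an unadjusted p under 0.05, median -0.15), and 2 of the 11 values were above 0. Its smallest p was that of the repressor gene Bcl6 (-0.78, limma adjusted p = 0.292), where vehicle mouse 4 stood apart. Igf1 stood at 33.7 to 44.9 scaled TPM with vehicle and 35.03 to 42.2 with G108 (0.02 ± 0.13, limma adjusted p = 0.930).

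Secreted and xenobiotic genes gave a short list of falls. Of 19 acute-phase genes, 4 were called lower and 0 higher, all of them orosomucoids or serum amyloid A4. Orm1, an abundant plasma carrier protein, stood at 351.6 to 530.5 scaled TPM with vehicle and at 171.1 to 339.5 with G108 (log2 fold change -0.92 ± 0.19, limma adjusted p = 0.0159), and it was not called on TPM (-0.15). Orm3 fell by 2.06 and Orm2 by 0.93 on the log2 scale, and the 3 Orm genes share sequence, so their split is uncertain. Saa4 had -0.72 (limma adjusted p = 0.0152), with 0.05 on TPM. Of 35 genes of cytochrome P450 families 1 to 3, Cyp2c54 (-1.20, limma adjusted p = 0.00372) and Cyp2d40 (-1.09, 0.00506) were called lower, with 14 at an unadjusted p under 0.05 and a median of -0.36. Both calls were lost on TPM, and the count was 5 without vehicle mouse 1, 9 without G108 mouse 1, 17 with array quality weights and 0 with vehicle mice 3 and 4 out together. The calls of Orm1 and Orm2 were both lost without any of G108 mice 2 to 4, and the acute-phase count was 1 without G108 mouse 2 or G108 mouse 3 and 2 without G108 mouse 4.

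For mitochondrial transcripts no change passed a test, and the direction depended on the denominator. The 37 genes of the mitochondrial genome made up 16.1%, 16.2%, 13.8% and 24.0% of TPM in vehicle mice 1 to 4 and 20.9%, 21.0%, 17.03% and 16.6% in G108 mice 1 to 4. The difference in means was 1.39 percentage points (two-sided exact permutation p = 0.571). With Mup genes out of the denominator the means were 32.1% and 24.0%, a difference of -8.18 points (two-sided exact permutation p = 0.0571). None of the 37 genes was called on either scale, with 17 at an unadjusted p under 0.05 and a median of -0.66 after scaling and 0.12 on TPM. The covariate for GC slope gave 16 calls lower and array quality weights 9. Among 34 mitochondrial carriers of the Slc25 family, 4 were called higher and 0 lower. Slc25a25, a calcium-regulated carrier of ATP and magnesium whose promoter is shown above, stood at 14.1, 13.98, 10.5 and 10.3 scaled TPM with vehicle and at 25.4, 34.3, 45.2 and 39.7 with G108 (1.47 ± 0.23, limma adjusted p = 0.00274). It overlaps Naif1 on the opposite strand.

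The core of the element was frequent in promoters in general, and the whole element was not. Letters were searched on both strands, and TGACG lies within TGACGTCA, so every promoter with the longer motif also counts for the shorter. A promoter was found by symbol for 7632 of the 11839 genes tested, for 112 of 158 called higher and for 97 of 164 called lower. Counts are of genes, and a gene held a motif if the window of any of its annotated starts did. Genes with several starts thus had more chances to count. TGACGTCA was in 2.03% of all 27025 genes with a promoter and in 3.51% of those tested. It was in 7 of 112 (6.25%) genes called higher and in 1 of 97 called lower. TGACG was in 36.4%, 40.2% and 22.7% of genes tested, called higher and called lower, and in 23.05% of all genes with a promoter. The letters TTCNNNGAA, which STAT factors bind, were in 7.93% of tested genes, 5.36% of those called higher and 15.5% of those called lower. These are descriptions of windows of 300 bases, and binding was not measured.

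On the HP diet the same contrast gave 145 calls (1.22%), 76 higher (0.642%) and 69 lower (0.583%), of which 86 were also called on SP, all 86 in the same direction. The sign on HP matched that on SP for 310 of the 322 genes, and for 291 the absolute change was larger on SP. The genes were picked by their call on SP, which favours larger values there. The test of the difference between diets called 0 genes (limma, smallest adjusted p = 0.575), with 854 of 11839 genes (7.21%) at an unadjusted p under 0.05, of which 117 were among the 322. Mup1 fell by 2.72 on SP and 1.26 on HP on the log2 scale (interaction unadjusted p = 0.00146 in limma, adjusted p = 0.575), and of the 28 Mup genes called 23 had an unadjusted interaction p under 0.05. Got1 had 2.24 on SP and 0.88 on HP (interaction unadjusted p = 0.00349 in limma, adjusted p = 0.575). Its mean scaled TPM with vehicle was 41.9 on SP and 89.8 on HP, and with G108 187.0 and 168.1. Thrsp had -1.32 on SP and -0.01 on HP (interaction unadjusted p = 0.00337 in limma, adjusted p = 0.575). Its means were 194.6 on SP and 117.1 on HP with vehicle, and 77.3 and 114.6 with G108. Rgs16, Serpina4-ps1, Arrdc3 and Depp1 had close values on both diets, at -3.65 and -3.13, -4.20 and -3.72, -2.35 and -2.27, and -2.27 and -2.32.

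**Figure D5:**
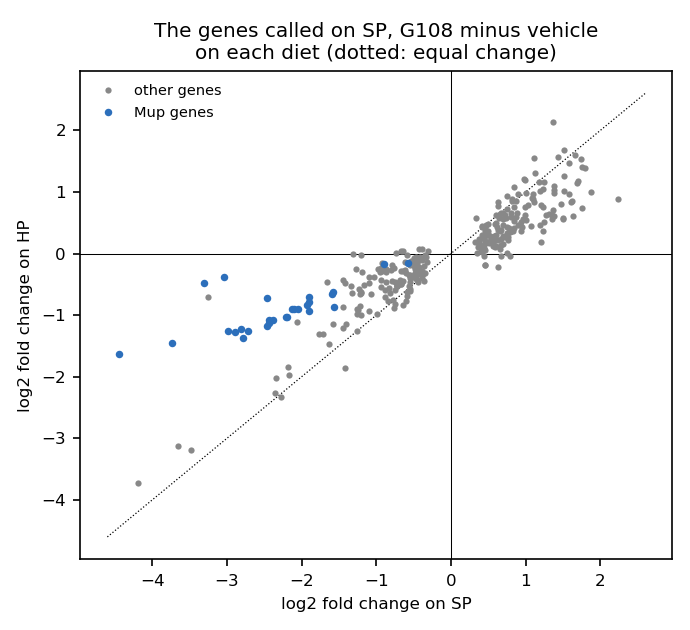
Log2 fold change of G108 against vehicle on HP (vertical) against that on SP (horizontal) for the 322 genes called on SP after median-of-ratios scaling (blue Mup genes, grey others), with a dotted line at equal change. Of these genes 310 lie in quadrants of equal sign, and the blue points lie above the dotted line where their falls on HP are smaller, although 0 genes passed the test of the difference.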

How the data were processed

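Liver RNA of 16 mice was sequenced on an Illumina instrument, 1 library per mouse, and the 8 SP libraries were compared. The authors checked reads with FastQC 0.11.8, aligned them to GRCm38 with HISAT2 2.0.5, obtained gene counts with featureCounts and deposited TPM for 55487 genes, in 1 table whose 16 value columns were all used. Read counts were not used here, so the DESeq2 fit of the study was replaced by limma 3.58.1 in R 4.3.3 on log2(TPM + 1) after median-of-ratios scaling, with factors from 11591 genes. One model of 4 group means over 16 libraries, with an intensity trend, tested the 11839 genes whose TPM averaged at least 1.

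Symbols came from GENCODE vM21 for 55227 genes. Reads per library were recovered from 138050 low values, of which 98.7% lay within 0.02 of a whole read, and precision is limited by counting error for low genes and by 4 mice a group for others. In simulated libraries 200 of 11839 genes differed 2-fold on SP, and Mup genes were lowered with G108 as well. The fit recovered 60.5% of the 200 and called 7 unchanged genes, while on TPM it called 8310 unchanged genes. Each gene was drawn independently, so shifts shared by many genes of a mouse were absent. The count of 7 therefore does not measure the error in the real libraries.

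Members and all 44 gene lists were chosen with earlier results of these data known. Named genes were the 12 largest rises and the 12 largest falls among calls without overlap, up to 4 called members of each list with the smallest adjusted p, the member with the smallest p of lists without calls, and 14 anchors such as Gcgr and Cps1. A few of the genes so chosen are not reported here. The 12 largest falls outside the Mup genes, the GC slope covariate and leaving out vehicle mice 3 and 4 together were added after the values were seen. Further alternatives were a pseudocount of 0.1, no filter, a mean TPM of at least 5, the 8 SP libraries alone, array quality weights, a replicate block of mouse numbers, voom on recovered reads, TPM rescaled without Mup and mitochondrial genes, TPM as deposited and each mouse left out in turn. For shares, two-sided exact permutation tests were used.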

Additional observations from a re-analysis of the deposited data

Results flagged for a closer look

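Within each group of 4 mice, a value was singled out where its gap to the nearest other mouse, divided by the whole range of the group, exceeded Dixon's critical value at the 95% level. Of 200 groups looked at (89 named genes, both shares and the summed markers of each cell type), 23 were singled out, where chance gives about 5% of groups.

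Vehicle mouse 1 stood above the other vehicle mice in genes that rose with G108. Its scaled TPM was 498.8 for Tat, 505.1 for Oat, 73.99 for Slc7a2 and 2.41 for Tuba8, against at most 213.1, 291.1, 29.1 and 0.164 in vehicle mice 2 to 4. It was also high for the red cell gene Alas2 (27.1) and the pseudogene Mup-ps15 (78.4).

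Vehicle mouse 4 was apart in a different set of genes. It was high for Gcgr (408.8), Srebf1 (175.9), Orm3 (19.4), the repressor gene Bcl6 (9.77), the Kupffer cell gene Clec4f (32.2), Col27a1 (28.4), Mup-ps3 (107.0) and Gm13773, which overlaps a Mup gene (571.8). It was low for transferrin, Trf (778.3 against 1786 to 1925), and for the proteasome subunit Psmd9 (2.04 against 3.31 to 3.48). Its mitochondrial share and GC slope were the highest of the vehicle mice, and their part in these values was not tested.

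G108 mouse 1 lay toward vehicle for Got1 (136.9), Rgs16 (5.98), Arrdc3 (11.3), Mup-ps2 (45.2) and Col27a1 (3.23). The remaining values were G6pc in vehicle mouse 2 (65.9) and Mup-ps15 in G108 mouse 3 (12.1).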

How the results depend on the processing

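The 158 genes called higher and 164 called lower kept their sign, where tested, in every setting that used median-of-ratios, voom or a rescaling without Mup and mitochondrial genes, but the counts moved. At a mean TPM of at least 5 only 190 of the 322 were tested, and with voom 321. They were 101 higher at a mean TPM of at least 5, 39 and 64 with the 8 SP libraries alone, 948 and 873 with array quality weights, 910 and 820 with the GC slope as a covariate, and 17 and 46 with vehicle mice 3 and 4 left out together, the last pair of settings being chosen after the values were seen. Fewer samples carry the fit in the second and last of these, and the cause of the other shifts was not tested. Leaving out 1 mouse gave 74 to 230 higher and 84 to 243 lower, with 98 higher without vehicle mouse 2, 94 without vehicle mouse 3, 84 and 91 without G108 mouse 2, 74 and 84 without G108 mouse 3 and 74 and 85 without G108 mouse 4. Of 65 named genes called, 19 were called in every setting that tested them, among them Got1, Egln3, Slc16a5, Rgs16, Serpina4-ps1, Arrdc3, Slc22a7, Mup1 and Mup7. With the 8 SP libraries alone 35 of the 65 lost their call, and 98 of the 322 calls remained.

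On TPM as deposited, 9113 and 72 replaced 158 and 164, and 50 of the 322 calls changed sign. The TPM count was 4427 higher at a mean TPM of at least 5, 130 lower with array quality weights, and 7770 to 9289 higher and 59 to 84 lower with 1 mouse left out. The interaction called 1 gene without a filter and 0 with 1 mouse left out. Mouse numbers did not pair the groups (correlations of deviations -0.05, -0.00, 0.30 and -0.39, none highest for its own number), and the replicate block gave 96 higher and 117 lower, with 207 of 322 calls kept.

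The difference in Mup share ran from -25.8 to -23.4 points with 1 mouse left out, where the smallest exact p for 3 against 4 is 0.0571. The mitochondrial share turned to -8.18 points without Mup genes in the denominator and ran from 0.15 to 3.54 with 1 mouse left out. On TPM the log2 fold change turned positive for Phka2 (0.21), Cyp27a1 (0.10), Saa4 (0.049), Xbp1 (0.30), Clec4f (0.22), Pecam1 (0.10), Col3a1 (0.17), Spp1 (0.39), Cela1 (0.49), Gcgr (0.19) and Srebf1 (0.57). Srebf1 was also 0.0098 with array quality weights, 0.15 with vehicle mice 3 and 4 out, and -0.34 to 0.13 with 1 mouse left out. Igf1 was -0.038 with those mice out and -0.028 to 0.11 with 1 left out, and Mup20 was -0.077 with those mice out.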

Other observations

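The following genes and families were picked after their values were seen and carry no test beyond the fit over all genes. Carboxylesterases, which hydrolyse lipid esters and drugs, had 4 of 13 genes called lower and 0 higher, with a median log2 fold change of -0.37. Ces2c stood at 36.2 ± 9.92 scaled TPM with vehicle and 12.996 ± 3.77 with G108 (SD, n = 4 each), a log2 fold change of -1.41 (limma adjusted p = 0.00184), and Ces1g had -1.42 (0.0191). On TPM the family median was 0.36, with 3 genes called higher and 2 lower. Nr1i3, the gene of the xenobiotic receptor CAR, had -1.18 (limma adjusted p = 0.0187) and lost its call on TPM (-0.42). Serpina12, which encodes the adipokine vaspin, fell from 17.8 ± 5.42 to 4.96 ± 1.11 scaled TPM (-1.63, limma adjusted p = 0.00124).

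Among rises outside the lists, Etnk2, an ethanolamine kinase, went from 65.1 ± 12.1 to 155.2 ± 29.3 scaled TPM (log2 fold change 1.24, limma adjusted p = 7.85e-04). Nnmt, nicotinamide N-methyltransferase, had 1.51 (limma adjusted p = 0.0418), Idh2, mitochondrial isocitrate dehydrogenase, 0.82 (0.00197) and Hcar2, a receptor for nicotinate and ketone bodies, 1.25 (0.00133) at levels below 2 scaled TPM in mean. Fh1, fumarate hydratase, had 1.38 (limma adjusted p = 0.0111) and Uox, urate oxidase, 0.74 (0.0494). Kiss1, the gene of kisspeptin, had 1.20 and missed the threshold (limma adjusted p = 0.0515). Genes of the cytosolic ribosome (0 of 84 called, median -0.08), the respiratory chain of nuclear origin (0 of 78, -0.01) and the interferon response (0 of 15, -0.21) gave no calls in limma after scaling, with 4, 8 and 3 genes at an unadjusted p under 0.05.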
